A study of Mus musculus with 34 samples.

Results

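The genes described here are 46 genes of mitosis and cytokinesis, the programme that carries a cell from the end of G2 through chromosome segregation to the separation of daughter cells. They were taken as a list of gene symbols (cyclins, mitotic kinases, checkpoint, kinetochore, spindle and cytokinesis genes). All 46 were found among the 37310 gene identifiers of the count files, and all 46 passed the filter on low counts in every experiment. The cells were CAD, a mouse catecholaminergic neuronal line that stops dividing and grows neurites when serum is removed, here wild type (WT) or labelled mir-138 DKO, a double knockout of the mir-138 genes. Poly-A RNA was sequenced in 28 libraries from 3 experiments. In the first, WT and DKO cells were compared in medium with 10% serum and 1 day after its removal (4 groups of 2 libraries). In the second, WT cells were compared in serum and after 4 days without it (2 groups of 3 libraries). The third used only DKO cells (7 groups of 2 libraries), in serum with no transfection named or transfected with pUC19 plasmid DNA, a miR-138 mimic or a miR-137 mimic (3 nM), each in serum or after 2 days without it. Serum was removed 48 h after transfection.

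Division is driven by CDK1 bound to cyclin B, which FOXM1 and other factors supply by raising transcription late in the cycle. PLK1 and the Aurora kinases then build the spindle and correct its attachments, the BUB and MAD proteins hold the cell in metaphase until every kinetochore is attached, and the anaphase-promoting complex with CDC20 and UBE2C destroys cyclin B and securin to release it. Differentiating neurons leave the cycle, and these RNAs are used as a readout of how many cells in a culture are still dividing.

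Libraries held 12740836 to 41505181 reads assigned to genes. The neuronal genes Prph and Hand2 were detected in every group, while Th, the first enzyme of catecholamine synthesis, was low in WT (2.13 CPM in serum in the first experiment) and listed at 0 in the DKO serum libraries of that experiment. CPM are counts scaled to 1000000 reads of a TMM-normalised library. Tubb3, the neuronal beta-tubulin, was at 465 CPM in WT and 27.3 CPM in DKO cells there, so the cells labelled DKO were low in part of the neuronal profile. The summed markers of fibroblasts, glia, macrophages, endothelium and epithelium reached at most 40.3 CPM in any library. Reads over the Mir138-1 hairpin gene numbered 217 to 343 in the DKO libraries of the first experiment, 15 to 37 in its WT libraries and 15 to 43 in the DKO libraries of the third, and Mir138-2 had 0 everywhere. Poly-A reads over a hairpin do not measure the mature miRNA, so the knockout label was not checked by them, and "DKO" below means the label. The 3 WT libraries at 4 days are wild type by title and design but carry the knockout genotype in 1 label field. Their Tubb3 level was 623 to 781 CPM, in the range of the WT and not of the DKO libraries, and they were analysed as WT. The labels do not say whether replicates were separate cultures or how many DKO clones were used, so a p-value here reflects library-to-library spread, which may be technical.

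Many mitotic genes share 2 short promoter elements, the cell cycle genes homology region (CHR), read by the DREAM and MuvB complexes, and the CCAAT box, read by NF-Y. Promoter windows from 250 bases before to 50 bases after the annotated start were available from RefSeq (GRCm38.p6) for 37 of the 46 genes. No window was found for Dlgap5, Cdc25c, Foxm1, Aurkb, Tpx2, Kif20a, Ccna2, Spc24 and Incenp. Stretches of 200 bases, from 150 before the start to 50 after, are shown for 8 genes on which the results below turn, 5′ to 3′ on the gene's strand, with TTTGAA (the CHR) and CCAAT in capitals on either strand (TTCAAA and ATTGG on the other). Ube2c (chr2:164769779-164769978, + strand), Kif11 (chr19:37376232-37376431, +), Plk1 (chr7:122159285-122159484, +), Ccnb2 (chr9:70421505-70421704, -) and Top2a (chr11:99024140-99024339, -) hold both elements and fell at least 1.76-fold at 1 day in WT cells. Bub3 (chr7:131560220-131560419, +) holds both and moved least at 4 days. Pttg1 (chr11:43425932-43426131, -) and Birc5 (chr11:117849087-117849286, +) hold neither and include the largest fall at 1 day.
Ube2c: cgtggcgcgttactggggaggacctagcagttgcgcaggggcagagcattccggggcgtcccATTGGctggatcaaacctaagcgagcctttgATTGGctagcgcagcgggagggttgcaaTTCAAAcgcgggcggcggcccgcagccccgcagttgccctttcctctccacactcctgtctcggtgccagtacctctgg
Kif11: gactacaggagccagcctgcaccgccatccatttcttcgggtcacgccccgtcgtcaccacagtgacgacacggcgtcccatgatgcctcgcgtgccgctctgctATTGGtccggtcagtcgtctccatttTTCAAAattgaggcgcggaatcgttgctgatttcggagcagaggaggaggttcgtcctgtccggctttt
Plk1: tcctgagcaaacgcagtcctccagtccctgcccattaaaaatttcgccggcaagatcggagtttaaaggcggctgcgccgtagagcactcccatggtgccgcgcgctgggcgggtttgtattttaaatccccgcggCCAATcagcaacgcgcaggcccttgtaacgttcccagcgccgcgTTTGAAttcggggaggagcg
Ccnb2: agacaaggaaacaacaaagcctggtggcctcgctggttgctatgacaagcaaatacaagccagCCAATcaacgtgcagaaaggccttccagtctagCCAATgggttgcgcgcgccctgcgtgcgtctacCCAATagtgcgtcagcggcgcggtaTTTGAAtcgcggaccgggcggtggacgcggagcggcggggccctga
Top2a: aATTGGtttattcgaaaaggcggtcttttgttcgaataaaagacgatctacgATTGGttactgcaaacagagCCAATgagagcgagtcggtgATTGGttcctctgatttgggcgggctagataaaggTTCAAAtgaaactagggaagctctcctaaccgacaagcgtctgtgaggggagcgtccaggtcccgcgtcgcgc
Bub3: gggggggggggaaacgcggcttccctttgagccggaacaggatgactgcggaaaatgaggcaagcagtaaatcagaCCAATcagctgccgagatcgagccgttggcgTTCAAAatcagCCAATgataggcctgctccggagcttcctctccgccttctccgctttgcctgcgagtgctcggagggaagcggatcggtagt
Pttg1: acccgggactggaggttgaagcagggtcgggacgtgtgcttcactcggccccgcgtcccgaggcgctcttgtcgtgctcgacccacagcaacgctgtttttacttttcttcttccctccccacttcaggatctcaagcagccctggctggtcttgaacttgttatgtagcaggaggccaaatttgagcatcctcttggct
Birc5: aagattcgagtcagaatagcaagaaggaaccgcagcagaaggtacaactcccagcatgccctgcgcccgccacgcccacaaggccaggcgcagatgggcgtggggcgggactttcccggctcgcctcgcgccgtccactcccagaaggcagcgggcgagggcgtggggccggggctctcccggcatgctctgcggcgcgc

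The CHR was found in 27 of 37 genes (73.0%), against 20.2% of 27025 genes with a window of the same length. From 50 bases before the start to 50 after it, 24 genes (64.9%) held it, against 5.72% of all. The CCAAT box was found in 28 genes (75.7%, against 41.1%), and 24 (64.9%, against 7.97%) held the CHR with at least 1 CCAAT box. The CHR lay at -29 in Ube2c, -19 in Kif11, 30 in Plk1, 4 in Ccnb2 and -23 in Top2a, counted from the start, and the nearest CCAAT box upstream of each lay at -57, -45, -14, -21 and -58. The E2F site TTCCCGC was found in 1 member and TTTGGCG in 0, against 5.29% and 1.77% of all genes, and TTCGAA, a CHR variant, in 3. A match describes these letters in this window and not a bound site, and the shares carry no test because the list was chosen as a mitotic list.

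**Figure D1:**
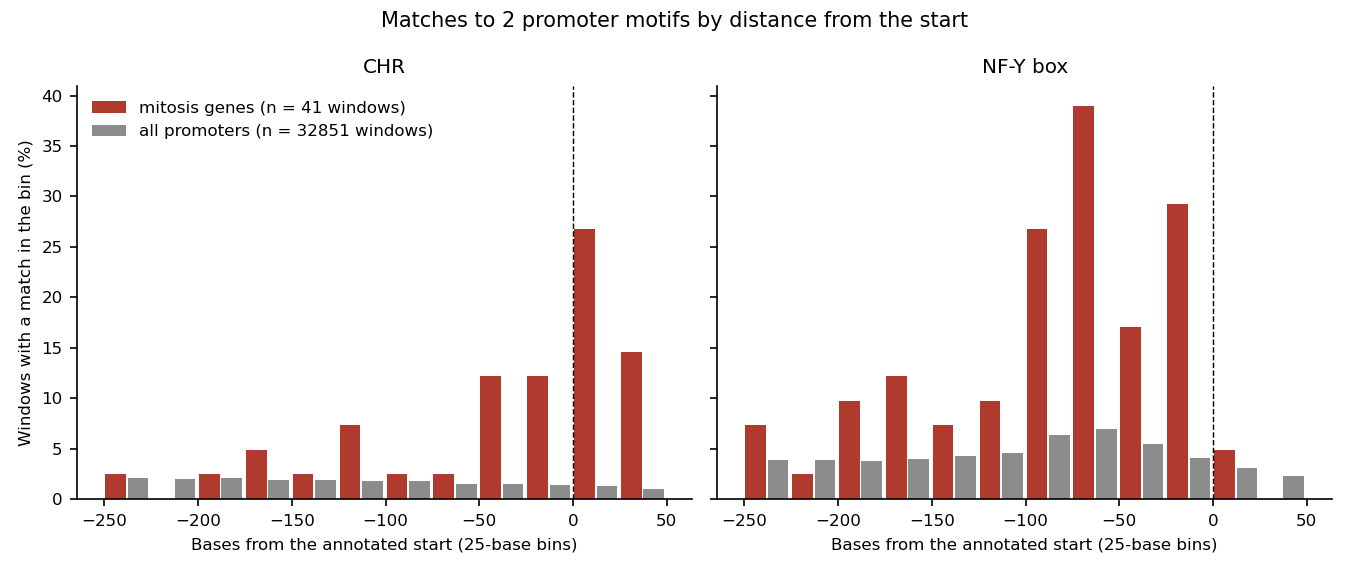
Share of promoter windows (y axis, %) with a match to the CHR (left) or the CCAAT box (NF-Y box, right) in each 25-base bin by distance from the annotated start (x axis, bases), for 41 windows of the mitosis genes (red) and 32851 windows of all genes (grey). CHR matches of the mitosis genes gather around the start, and CCAAT boxes gather upstream of it.

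Genes with and without a CHR covered similar ranges of change. At 1 day in WT cells the median log2 fold change was -1.04 over the 27 genes with it and -0.99 over the 10 without. At 4 days the medians were -5.68 and -6.0, and with the miR-138 mimic in serum -0.658 and -0.514. These medians are a description over few genes, with no test.

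Comparing WT cells after 1 day without serum with WT cells in serum asks how soon the programme responds. All 46 genes fell at an adjusted p under 0.05 (edgeR's quasi-likelihood test, adjusted over all genes, the threshold used throughout), with a median log2 fold change of -0.964. Of all 13630 genes tested, 20.3% were called lower and 20.4% higher, and the median change of all genes was 0.0246. The summed level of the 46 genes went from 7454 and 7447 CPM in serum to 3720 and 3898 CPM at 1 day, 51.1% of the serum mean. In every one of the 46 genes the 2 libraries at 1 day lay below both serum libraries (groups apart in this direction in 35.1% of all genes). In bulk RNA fewer dividing cells and less RNA of these genes per cell cannot be told apart.

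The largest falls included a brake on chromosome separation and the cyclin and kinases of mitotic entry. Pttg1, which encodes securin, the inhibitor of separase, was at 51.03 and 51.13 CPM in serum and 17 and 16.7 CPM at 1 day (log2 fold change -1.60, SE 0.102, adjusted p = 5.48e-08). Plk1, the kinase of mitotic entry and spindle assembly, was at 228 and 231 CPM in serum and 81.2 and 88.6 CPM at 1 day (-1.44, SE 0.0687, adjusted p = 4.08e-09). Ccnb1, cyclin B1, was at 279 and 293 CPM against 113 and 119 CPM (-1.30, SE 0.0627, adjusted p = 4.14e-09). In these genes the replicates lay close together and far from the other group. On the log2 scale Bub1b, the checkpoint protein BUBR1, changed by -1.38, Gtse1, a regulator of p53 and microtubules in G2, by -1.33, Aurka, the centrosomal Aurora kinase, by -1.22, and Ube2c by -1.155.

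At the other end, Nusap1, a microtubule bundling protein of the spindle, was at 63.0 and 63.6 CPM in serum and 44.8 and 49.5 CPM at 1 day (-0.42, SE 0.0898, adjusted p = 0.0017). Ndc80, the microtubule-binding subunit of the outer kinetochore, changed by -0.60, Bub3, the checkpoint adaptor, by -0.62, Dlgap5, a kinetochore fibre protein, by -0.63, and Cenpf by -0.67, all past the threshold. By role, the 9 checkpoint and anaphase-promoting complex genes had a median of -1.09, the 8 kinases and passenger complex genes -1.03, the 3 cytokinesis genes -1.0, the 7 cyclin and entry genes -0.984, the 10 kinesin and spindle genes -0.907 and the 7 kinetochore genes -0.901. The medians of the roles lay close together, and genes within a role differed more. Of the 2 proliferation markers, Mki67 was at 718 and 668 CPM in serum and 340 and 330 CPM at 1 day (-1.05, SE 0.0897, adjusted p = 7.28e-07), and Top2a, the topoisomerase that untangles chromosomes, changed by -0.82.

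**Figure D2:**
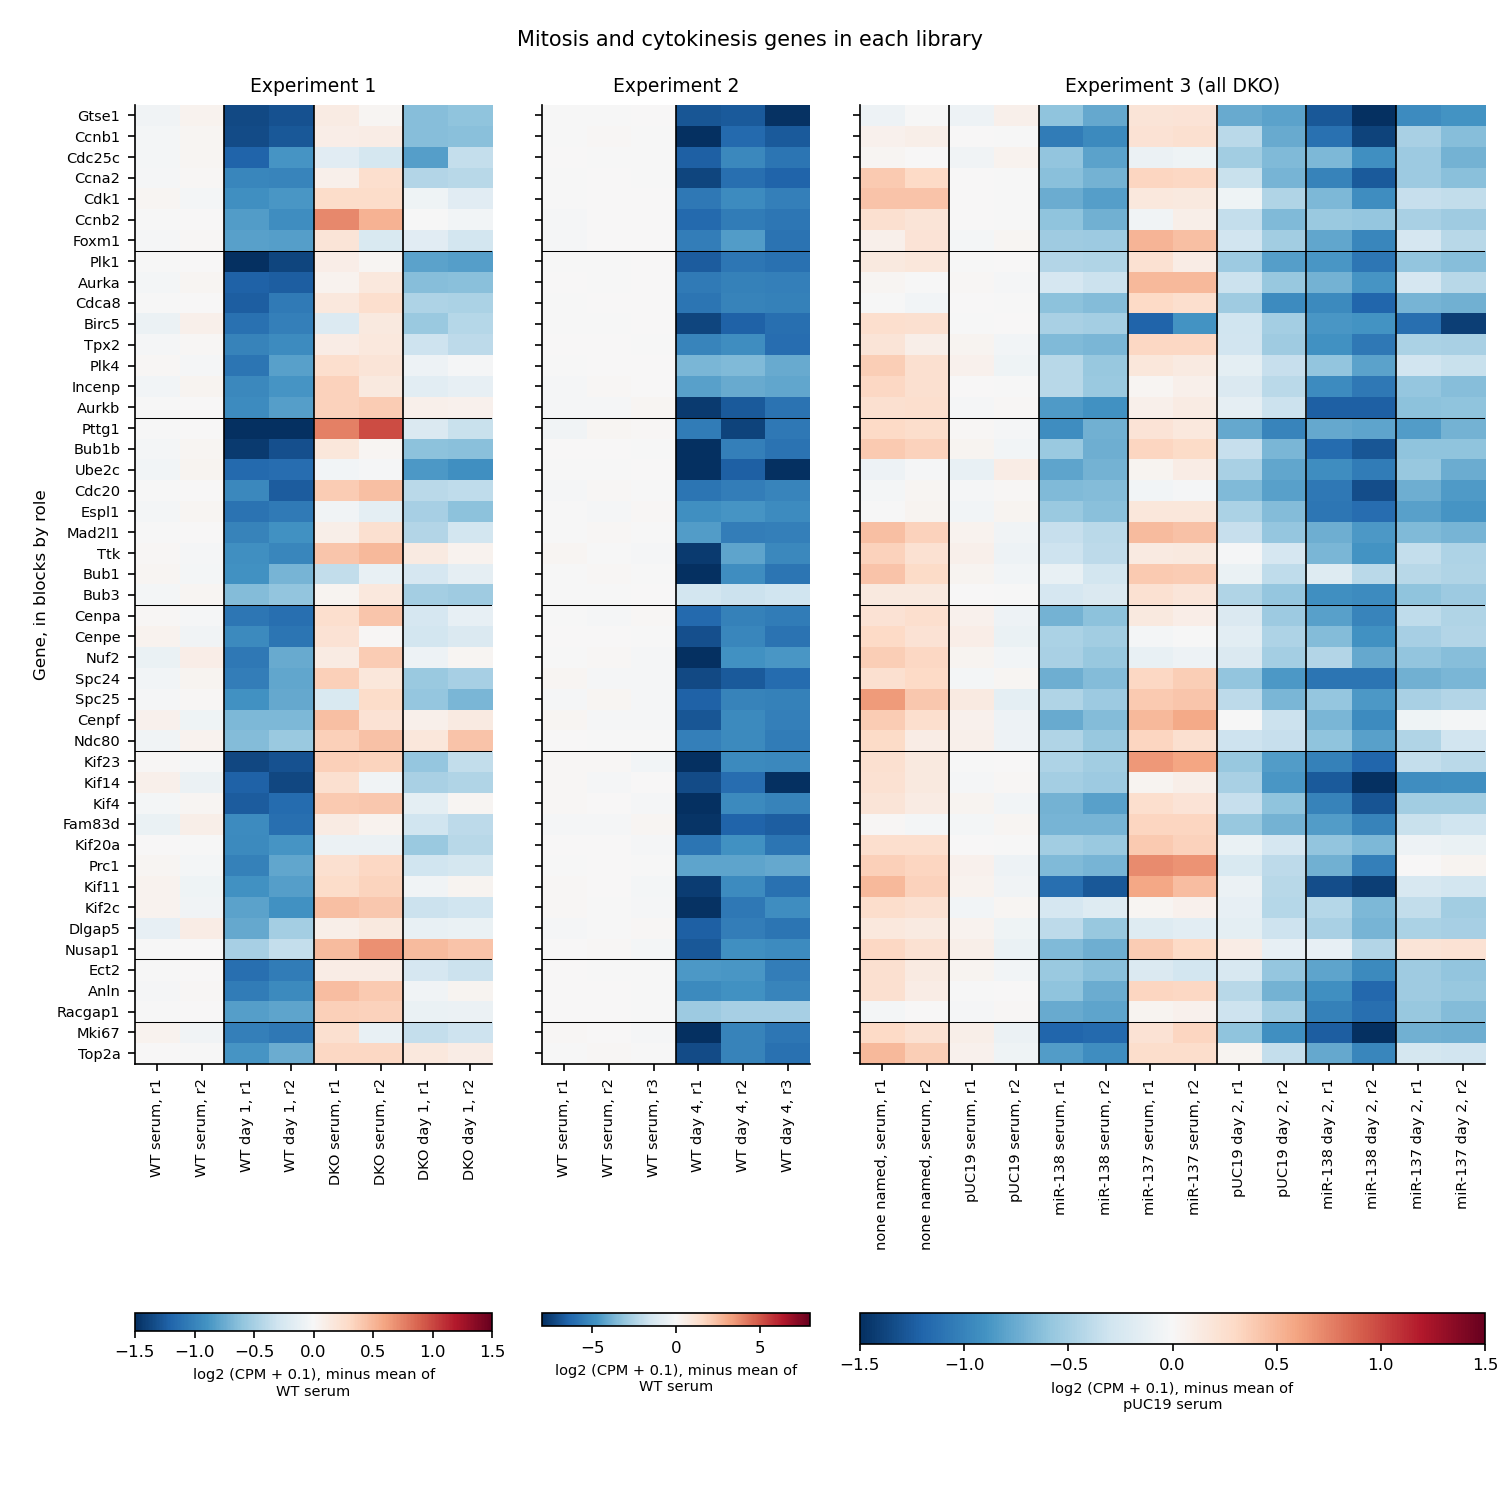
Each of the 46 genes (rows, in blocks by role) in each of the 28 libraries (columns), as log2 of CPM plus 0.1 minus the same for the mean of the reference group of its experiment: WT serum in the first and the second, pUC19 serum in the third. Colour scales end at 1.5 either way in the first and the third experiment and at 8 in the second, and values beyond have the end colour. The deepest fall is at 4 days, where replicate 1 is lowest for many genes.

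After 4 days without serum the programme was nearly silent. All 46 genes fell, each at least 3.0-fold, with a median log2 fold change of -5.78, in a comparison where 34.7% of 13283 genes were called lower and 36.2% higher. The summed level went from 6615, 6698 and 6493 CPM in serum to 211.6, 287 and 254.7 CPM, 3.8% of the serum mean. All 3 libraries at 4 days lay below all 3 in serum for each of the 46 genes (36.9% of all genes were apart in this direction).

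Ube2c, the ubiquitin-conjugating enzyme that works with the anaphase-promoting complex, had the largest fitted fall. It was at 228, 226 and 242 CPM in serum and 0.171, 2.45 and 0.774 CPM at 4 days (log2 fold change -7.75, SE 0.316, adjusted p = 1.2e-10). Kif14, a kinesin of cytokinesis, went from 54.5, 46.75 and 51.01 CPM to 0.257, 0.661 and 0 CPM (-7.51, SE 0.381). Gtse1 changed by -7.45, Fam83d, a spindle protein of chromosome alignment, by -7.39, Ccnb1 by -6.925, Spc24, a subunit of the NDC80 complex, by -6.92, and Aurkb, the kinase of the passenger complex, by -6.70 on the log2 scale. For such genes the 4-day libraries held few reads (1 count of Fam83d and of Bub1 in the lowest), so these sizes are imprecise.

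The lowest adjusted p values were those of Aurka, Cdca8 and Prc1, followed by Espl1, Plk1, Cdk1 and Incenp. Aurka was at 127, 123 and 128 CPM in serum and 2.35, 2.83 and 2.79 CPM at 4 days (-5.56, SE 0.116, adjusted p = 2.28e-12). Cdca8, borealin of the passenger complex, changed by -5.58 (SE 0.125), Espl1, the separase that cuts cohesin, by -4.91 (SE 0.116), Plk1 by -6.12 (SE 0.152) and Cdk1, the kinase that drives mitotic entry, by -5.44 (SE 0.135). Foxm1, the transcription factor of G2 and M genes, changed by -5.24 (SE 0.24), from 107, 114 and 116 CPM to 2.35, 5.05 and 1.82 CPM.

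The smallest falls stood apart from the rest. Bub3 was at 215, 217 and 224 CPM in serum and still at 80.1, 66.1 and 72.3 CPM at 4 days (-1.59, SE 0.0829, adjusted p = 1.14e-09). Racgap1, the GTPase-activating subunit of centralspindlin, was at 390.3, 390.7 and 374 CPM and then 50.5, 62.0 and 60.5 CPM (-2.74, SE 0.0885). Plk4, the kinase of centriole duplication, changed by -3.75, Prc1, the bundler of the central spindle, by -4.18, and Incenp, the scaffold of the passenger complex, by -4.19. Each of these passed the threshold, and the next smallest fall, that of Espl1, was -4.91.

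Replicate 1 at 4 days was the lowest of the 3 libraries for 32 of the 46 genes. Mki67 was at 0.727 CPM there against 11.9 and 8.65 CPM in the others, and 515, 499 and 447 CPM in serum (-6.11, SE 0.448, adjusted p = 3.24e-08). Without that library its change was -5.59 (adjusted p = 5.57e-15), and all 46 genes were again lower. Mitochondrial genes took 2.48 to 3.51% of assigned reads at 4 days and 1.95 to 2.1% in serum, and the part of RNA quality in the fall was not tested.

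**Figure D3:**
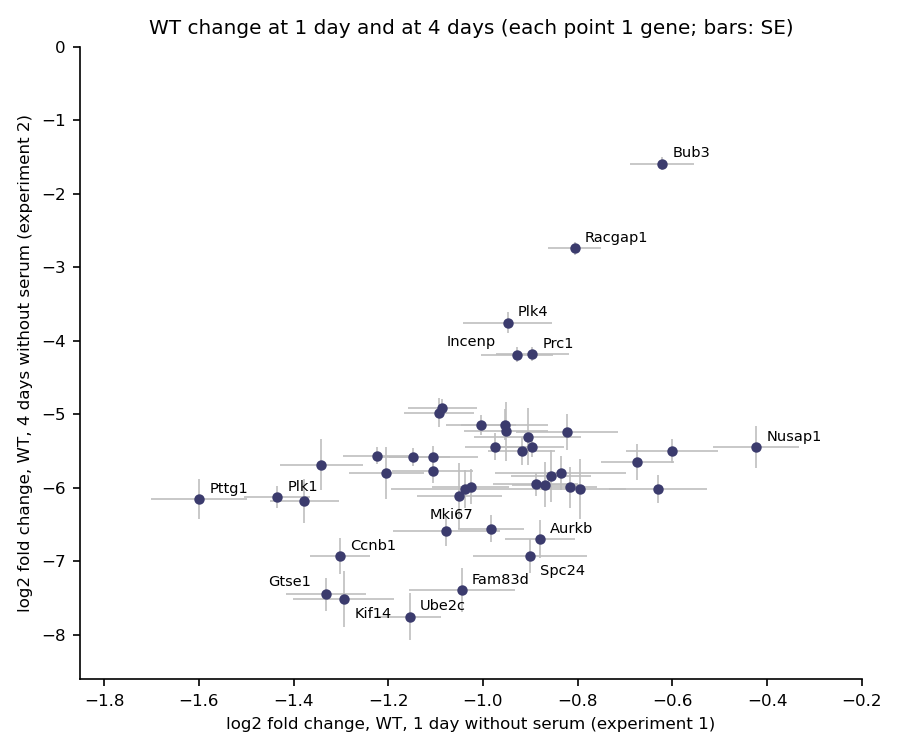
Log2 fold change of each of the 46 genes in WT cells at 1 day (x axis, first experiment) and at 4 days (y axis, second experiment), each against its own serum libraries, with SE bars and selected names. Bub3 (-0.62 and -1.59) and Racgap1 (-0.81 and -2.74) sit at the top, apart from the other genes.

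Set against the change at 1 day in a joint fit of the WT libraries, the change at 4 days was larger for all 46 genes (median difference -4.72; 23.3% of 14158 genes were called in this direction and 19.4% in the other). The difference was -4.31 for Aurka (SE 0.133, adjusted p = 6.16e-12) and -0.94 for Bub3 (SE 0.109, adjusted p = 3.47e-06), the smallest. The 2 times come from 2 experiments, each with its own serum libraries, and the titles of the second carry a mark on the line's name that the first lacks, so time, experiment and line cannot be told apart. Across the 46 genes the changes at 1 and 4 days had Pearson's r = 0.406 and Spearman's rho = 0.371. That is a description over genes that share libraries within each comparison: Nusap1, the smallest fall at 1 day, changed by -5.44 at 4 days.

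The comparison of DKO with WT cells asks whether the programme depends on the genotype label. In serum the sum of the 46 genes in DKO cells (8680 and 8502 CPM) was 115% of that in WT cells. Of the genes 20 were called higher and 0 lower, where 19.2% of all 13630 genes were called higher and 21.5% lower, and the median log2 difference was 0.188. Pttg1 stood highest, at 86.2 and 101 CPM in DKO against 51.03 and 51.13 CPM in WT (0.87, SE 0.093, adjusted p = 3.55e-06). Ccnb2, cyclin B2, was at 106 and 91.4 CPM against 63.5 and 64.3 CPM (0.63, SE 0.0858, adjusted p = 4.28e-05), and Nusap1 at 87.7 and 102 CPM against 63.0 and 63.6 CPM (0.58, SE 0.0873). Top2a (0.31, adjusted p = 0.000488) and Aurkb (0.36, adjusted p = 0.00106) were also higher. Other genes of common use as markers did not pass: Mki67 (0.08, adjusted p = 0.527), Plk1 (0.07, adjusted p = 0.446), Ccnb1 (0.10, adjusted p = 0.194) and Foxm1 (-0.01, adjusted p = 0.976). The DKO replicates lay on both sides of WT for Mki67 (821.2 and 640.5 against 718.4 and 668 CPM) and Foxm1 (161.7 and 120.7 against 140.1 and 143.7 CPM). Equal levels are therefore not shown for these genes. Without WT serum replicate 2 the median difference was 0.206.

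After 1 day without serum the gap was wide. Of the 46 genes 44 were higher in DKO cells, 0 lower and 2 not past the threshold (median 0.713; 21.9% of all genes were called higher and 23% lower), and in all 46 both DKO libraries lay above both WT libraries (38% of all genes). Top2a was at 1102 and 1068 CPM in DKO against 536 and 590.3 CPM in WT (0.95, SE 0.0561, adjusted p = 5.49e-09). Kif4, the chromokinesin that shapes mitotic chromosomes, was at 99.99 and 113 CPM against 46.6 and 49.5 CPM (1.14, SE 0.0792, adjusted p = 2.91e-08). Pttg1 was at 43.8 and 40.6 CPM against 17 and 16.7 CPM (1.33, SE 0.102), Anln, the anillin scaffold of the cleavage furrow, differed by 0.999 (SE 0.0741), and Aurkb by 0.95 (SE 0.0743). The 2 that missed the threshold were Bub3 (0.10, SE 0.0676, adjusted p = 0.252) and Spc25 of the NDC80 complex (0.20, SE 0.139, adjusted p = 0.263).

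In DKO cells serum removal also lowered most of these genes. At 1 day 39 of the 46 genes were lower than in DKO serum cells, 0 higher and 7 not past the threshold (median -0.461; 20.4% of all genes were called lower and 19.9% higher), and the sum went from 8680 and 8502 to 6311 and 6376 CPM, 73.8% of the serum mean against 51.1% in WT. Mitochondrial genes took 0.835 and 1.19% of assigned reads in DKO cells in serum and 1.57 and 1.96% at 1 day (1.35 and 1.23%, then 1.59 and 1.34% in WT), and their part in the fall and in its difference between labels was not tested. Plk1 was at 247 and 235 CPM and then 132 and 129.6 CPM (-0.88, SE 0.0669, adjusted p = 2.97e-07), and Ube2c at 191 and 194 CPM and then 108 and 104 CPM (-0.86, SE 0.0651, adjusted p = 2.87e-07). Bub1, the checkpoint kinase, was at 88.4 and 106 CPM and then 95.8 and 104 CPM (0.04, adjusted p = 0.755), and its groups overlapped. The other genes that did not pass were Ndc80, Nusap1, Foxm1, Dlgap5, Cdc25c and Nuf2.

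The difference between the genotype labels in the response to withdrawal was tested directly. It passed for 34 of the 46 genes, all with a smaller fall in DKO cells, and for 12 it did not (median difference 0.546; 5.36% of all genes were called in this direction and 4.37% in the other). The lowest adjusted p was that of Top2a, which changed by -0.82 in WT and -0.18 in DKO cells (difference 0.64, SE 0.0786, adjusted p = 0.000152). Kif4 followed (difference 0.74, SE 0.109, adjusted p = 0.000694), then Ect2, the RhoA activator of the cleavage furrow (0.70, SE 0.103, adjusted p = 0.000696), and Bub1b (0.66, SE 0.0996, adjusted p = 0.000921). Bub3 fell by 0.62 in both (difference -0.002, SE 0.0949, adjusted p = 1). For Spc24 (0.11, adjusted p = 0.756), Spc25 (0.16, adjusted p = 0.687) and Kif2c, the microtubule depolymerase (0.12, adjusted p = 0.592), the difference did not pass, with SE of 0.166, 0.193 and 0.117. Without WT serum replicate 2 the median difference over the 46 genes was 0.524. The neuronal markers differed between the labels as well (Tubb3 847 CPM in WT and 57.2 CPM in DKO cells at 1 day), and their part in the difference was not tested.

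**Figure D4:**
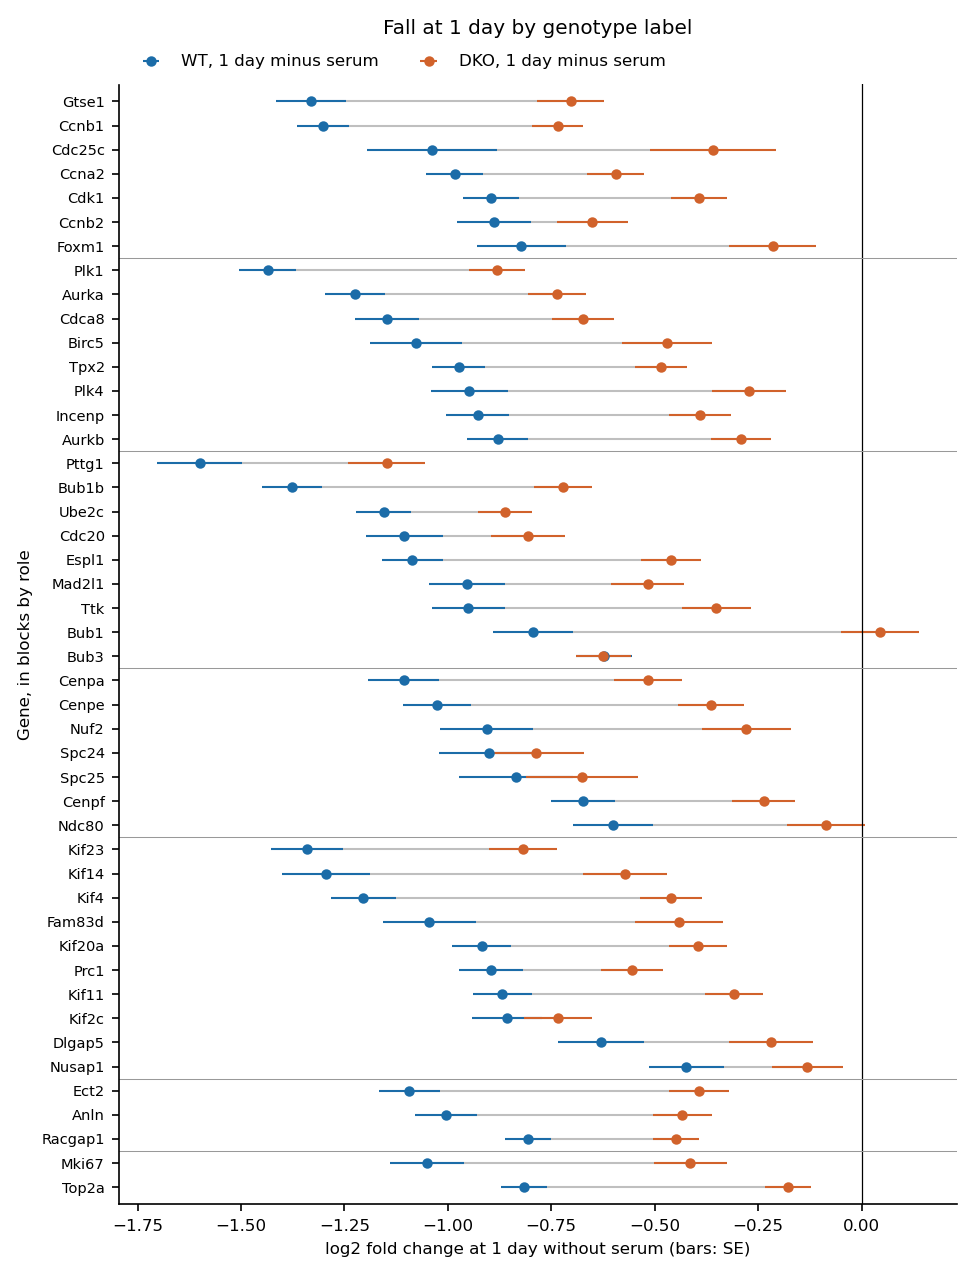
Log2 fold change at 1 day without serum against serum (x axis, with SE bars) of the 46 genes (in blocks by role) in WT (blue) and DKO cells (orange) of the first experiment. The DKO point lies to the right of the WT point for 45 of the 46 genes, and for Bub3 the points coincide.

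Other genes of division were counted from lists of related complexes, where 20.3% of all genes were lower at 1 day and 34.7% at 4 days in WT cells, and 21.9% were higher in DKO than in WT cells at 1 day. Among 29 DNA replication genes, 28 fell at 1 day in WT cells and 29 at 4 days, with medians of -0.861 and -3.52, and 26 were higher in DKO cells at 1 day. Of the same 29 genes, 21 were already higher in DKO cells in serum (median 0.287; 19.2% of all genes). The smaller fall in DKO cells passed for 10 of them (5.36% of all genes). Among 35 further kinetochore and spindle genes 30 fell at 1 day and 33 at 4 days (medians -0.784 and -4.39), led at 4 days by the kinesins Kif22 (-4.57, SE 0.103) and Kif18b (-5.51, SE 0.138). All 19 further genes of entry, exit and cytokinesis fell at both times (medians -0.847 and -4.28). The 17 subunits and regulators of the anaphase-promoting complex stood apart from its mitotic partners Cdc20 and Ube2c: 7 were lower and 1 higher at 1 day, and 10 lower and 1 higher at 4 days, with medians of -0.0769 and -0.362. Those that fell at 4 days included Ube2s, the chain-extending enzyme (-2.55, SE 0.095), and Fbxo5, the inhibitor EMI1 (-3.63, SE 0.149), while the core subunit Anapc2 rose by 1.02 (SE 0.071). Of 17 condensin and cohesin genes 15 fell at 4 days (median -1.12), and of 20 genes of cell cycle transcription 18 fell (median -1.62), with Mybl2, the B-MYB partner of MuvB, at -4.62 (SE 0.118).

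In the third experiment all cells were DKO and the mimics supplied a miRNA. A mimic is a synthetic duplex loaded like a natural miRNA, which lowers RNAs that match its seed, bases 2 to 8. The mature sequences from RefSeq are shown because the cells differ by them, with the seed in capitals. miR-138-5p is encoded on chr9:122682898-122682920 and chr8:94324312-94324334 and miR-137-3p on chr3:118433901-118433923 (GRCm38.p6, + strand), and the labels do not give the sequence of the mimics used.
miR-138-5p: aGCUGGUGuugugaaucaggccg
miR-137-3p: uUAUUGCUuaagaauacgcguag

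In serum the mimics moved the mitotic genes in different directions from pUC19. The miR-138 mimic lowered 45 of the 46 against pUC19 (0 higher; median -0.648; 27.3% of 12655 genes were called lower and 28.7% higher), and the miR-137 mimic raised 27 and lowered 2 (median 0.217; 23.1% called higher and 22.5% lower). Of the 27 raised by miR-137, 26 were lowered by miR-138, the fewest possible once 45 of the 46 were lowered. Both comparisons use the same 2 pUC19 libraries. That control was plasmid DNA, and no group received a control duplex. Against pUC19 the sequence of a mimic and the delivery of a small RNA cannot be told apart. In sum the genes were at 8775 and 8407 CPM with pUC19, 5376 and 5202 CPM with miR-138 (61.6% of the pUC19 mean) and 10250 and 10290 CPM with miR-137. DKO cells with no transfection named were at 10420 and 10000 CPM in serum. The miR-137 sum thus lay above pUC19 but within the range of those cells. No mimic was tested against those cells. Set against each other directly, 45 of the 46 were lower with miR-138 than with miR-137 and 1, Birc5, was higher (median -0.86; 30.7% of all genes were called lower and 32.7% higher). At 2 days 36 were lower and Birc5 was again the 1 higher (median -0.418; 30.8% of all genes were called in each direction).

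With the miR-138 mimic, Kif11, the Eg5 motor that separates spindle poles, was at 92.5 and 83.5 CPM against 209.7 and 195 CPM with pUC19 (-1.20, SE 0.0836, adjusted p = 4.69e-10). Mki67 was at 388 and 395 CPM against 938 and 829.5 CPM (-1.18, SE 0.0923, adjusted p = 2.66e-09), and Ccnb1 at 65.65 and 70.53 CPM against 137 and 136 CPM (-1.002, SE 0.0871, adjusted p = 1.06e-08). These 3 genes fell at least 2-fold. Aurkb had the lowest adjusted p (-0.88, SE 0.0604, adjusted p = 3.99e-10), followed after Kif11 by Racgap1 (-0.77, SE 0.06) and Mki67. Cdk1 changed by -0.79, Foxm1 by -0.53, Plk1 by -0.44 and Bub3 by -0.23, all past the threshold. Bub1 did not pass, at 127 and 113 CPM against 141 and 133 CPM (-0.19, SE 0.081, adjusted p = 0.0515).

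With the miR-137 mimic, Birc5, survivin of the passenger complex, was the 1 gene that fell at least 2-fold. It was at 37.0 and 45.6 CPM against 84.8 and 85.7 CPM with pUC19 (-1.05, SE 0.0909, adjusted p = 1.57e-08). Ect2 was the other gene that fell (-0.25, SE 0.0803, adjusted p = 0.0162). The other 3 measured passenger complex subunits did not follow Birc5: Aurkb (0.10, adjusted p = 0.174) and Incenp (0.05, adjusted p = 0.555) did not pass, and Cdca8 was higher (0.27, adjusted p = 0.0126). Highest were Prc1, at 517 and 504.5 CPM against 331 and 299.7 CPM (0.69, SE 0.0736, adjusted p = 2.32e-07), and Kif23, the motor subunit of centralspindlin, at 166 and 159.7 CPM against 105 and 106 CPM (0.63, SE 0.0706, adjusted p = 5.31e-07). Aurka rose by 0.48, Foxm1 by 0.48 and Kif20a, the kinesin MKLP2, by 0.37, while Plk1, Cdk1 and Cdc20 did not pass (0.17, 0.16 and -0.03). Tubb3 was at 71.1 CPM with miR-137 and 32.1 CPM with pUC19 in serum (244 and 44.7 CPM at 2 days), and the glial sum at 1.86 to 2.57 and 4.42 to 4.87 CPM in serum. Their part was not tested.

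**Figure D5:**
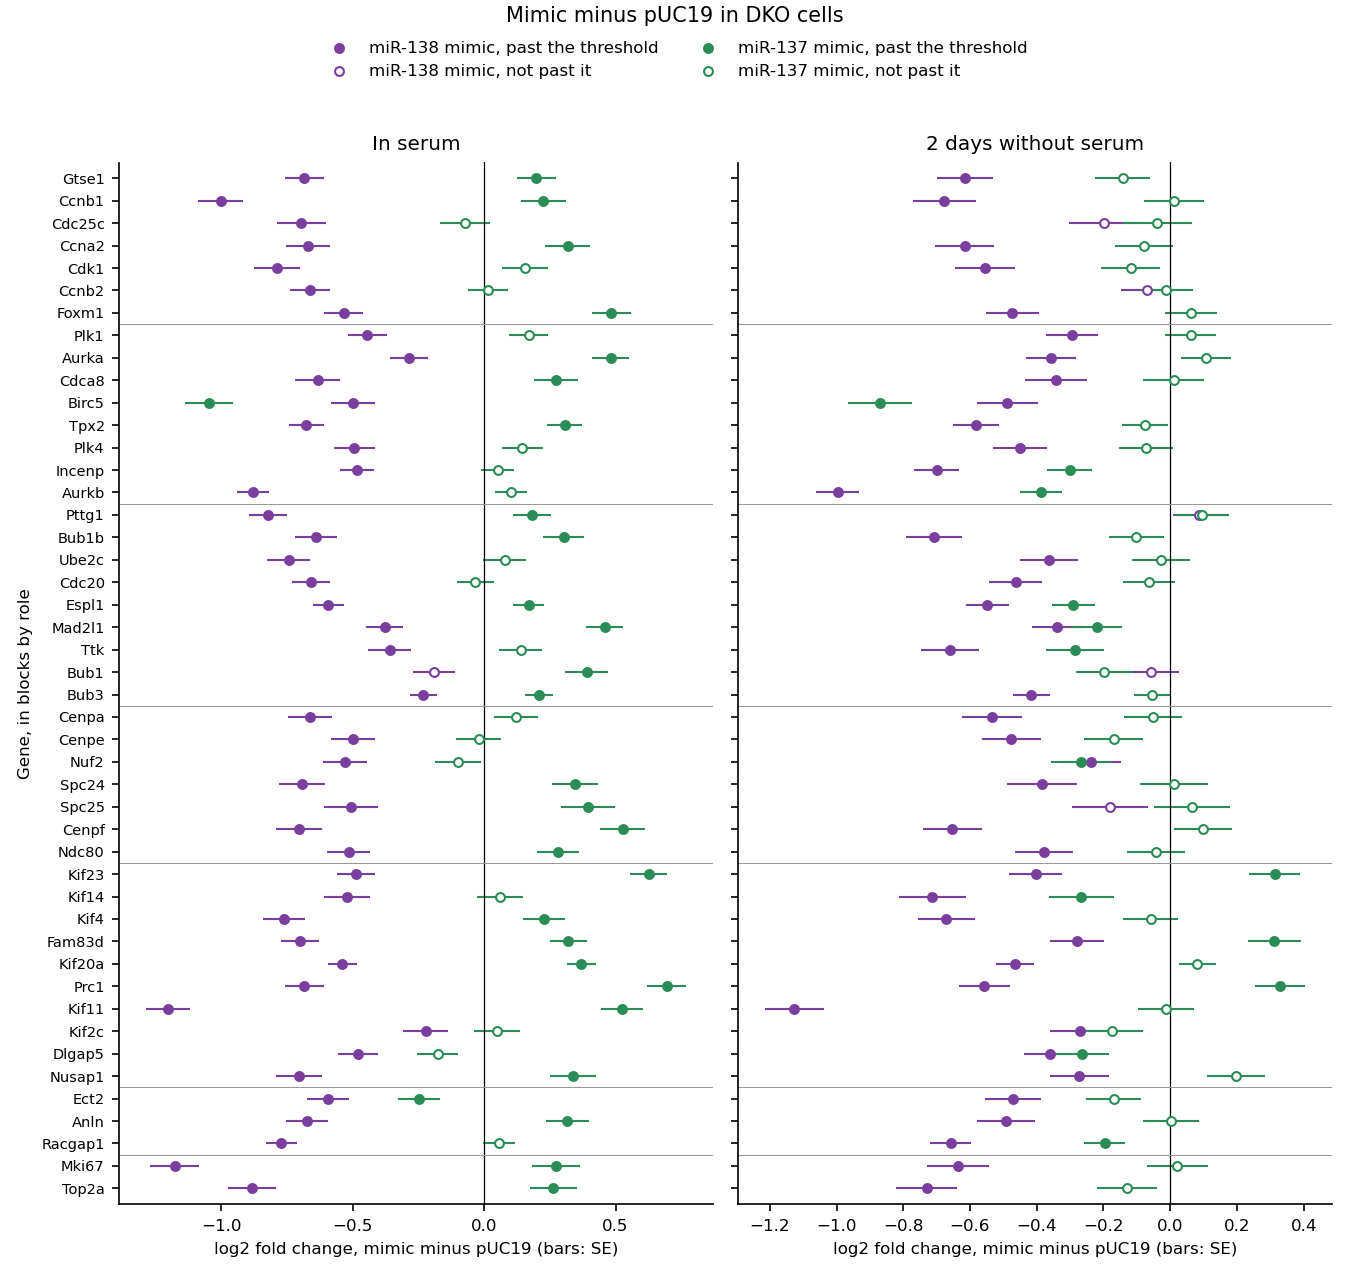
Log2 fold change of the 46 genes (in blocks by role) for the miR-138 mimic (purple) and the miR-137 mimic (green) against pUC19 (x axis, with SE bars), in serum (left) and after 2 days without serum (right). Filled points passed the threshold. Birc5 is the point in which miR-137 lies to the left of miR-138 in serum.

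Groups without a mimic also differed from each other. Libraries in serum are labelled day 0 and those without it day 2. Serum removal and time since transfection therefore cannot be told apart in this experiment. In serum pUC19 cells had 27 of the 46 genes lower than the cells with no transfection named, and 0 higher (median -0.238; 15.5% of all genes were called lower and 10.7% higher), with Mad2l1, the checkpoint protein MAD2, at -0.40 (SE 0.0693, adjusted p = 0.000332). The median was -0.223 without replicate 1 of the cells with no transfection named, and -0.192 without pUC19 serum replicate 2. The titles of the cells with no transfection named carry a mark that the others lack, whose meaning is not given. Line and transfection therefore cannot be told apart. After 2 days without serum pUC19 cells had 42 genes lower and 0 higher than in serum (median -0.424; 31.3% of all genes were called lower and 28.4% higher), with Pttg1 at 90.7 and 88.2 CPM and then 52.6 and 45.1 CPM (-0.87, SE 0.0771, adjusted p = 9.6e-09). Nusap1, Ttk, Top2a and Cenpf did not pass, Nusap1 at -0.0005 (adjusted p = 0.997). Low sums of markers of other cells moved with this change: fibroblast markers were at 7.07 to 7.43 CPM in serum and then 26.1 to 28.2 CPM, endothelial markers were at 12.3 to 14.1 and then 27.3 to 28.5 CPM, and glial markers at 4.42 to 4.87 and then 9.8 to 10.7 CPM. Their part was not tested. Across the 46 genes the pUC19 changes ranked like those at 1 day in the first experiment, which share no library with them. Pearson's r was 0.74 and Spearman's rho 0.739 with DKO cells, and 0.696 and 0.67 with WT cells, a description over genes. With WT cells at 4 days, which also share no library, they were lower, at 0.29 and 0.357.

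At 2 days the pUC19 libraries differed: replicate 1 was above replicate 2 for all 46 genes, with sums of 7142 and 5859 CPM. With the miR-138 mimic at 2 days replicate 1 was above replicate 2 for 44 genes, with sums of 4745 and 4130 CPM. The miR-138 mimic again lowered the programme, with 41 genes lower than pUC19 and 0 higher (median -0.472; 31.1% of all genes were called lower and 30.9% higher). All 41 were also lower in serum, where all but 1 of the 46 were, so this overlap was nearly fixed in advance. Kif11 was at 80.4 and 75.7 CPM against 189 and 151 CPM (-1.13, SE 0.0875, adjusted p = 1.45e-09), and Aurkb at 44.4 and 44.5 CPM against 94.3 and 82.9 CPM (-0.997, SE 0.065, adjusted p = 1.22e-10). The 5 that did not pass included Pttg1, at 52.4 and 51.6 CPM against 52.6 and 45.1 CPM (0.09, adjusted p = 0.357), Ccnb2 (-0.07, adjusted p = 0.474) and Bub1 (-0.06, adjusted p = 0.574). The neuronal marker Tubb3 moved with the mimic (11.4 CPM with miR-138 and 32.1 CPM with pUC19 in serum, 8.9 and 44.7 CPM at 2 days), as did the low sums at 2 days of fibroblast markers (37.1 to 38.1 and 26.1 to 28.2 CPM) and glial markers (17.2 to 18.7 and 9.8 to 10.7 CPM). Mitochondrial genes took 2.28 to 2.39% of assigned reads with miR-138 and 1.45 to 1.69% with pUC19 at 2 days. The part of these in the result was not tested.

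For the miR-137 mimic the picture at 2 days was mixed, with 3 genes higher and 10 lower than pUC19 (median -0.0568; 20.5% of all genes were called higher and 22.2% lower), shares no larger than the background. The 3, Prc1 (0.33), Kif23 (0.31) and Fam83d (0.31), were also higher in serum. Birc5 was again the lowest, at 39.0 and 32.0 CPM against 69.4 and 59.8 CPM (-0.87, SE 0.0952, adjusted p = 4.26e-07), and it was the gene lower at both times. Aurkb, at 67.5 and 68.3 CPM against 94.3 and 82.9 CPM, had changed by -0.39 (SE 0.063, adjusted p = 5.45e-05). The direction changed with the pUC19 libraries: the median was 0.0819 without replicate 1 at 2 days and -0.167 without replicate 2.

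With miR-138, 31 of the 46 genes were lower at 2 days without serum than in serum, and 1 was higher. Of all genes 32.2% were called lower and 31.1% higher. With miR-137, 44 were lower and 0 higher, where 32.6% of all genes were called lower and 33.2% higher. Serum removal and time since transfection cannot be told apart here, nor in the differences from pUC19 below. Pttg1 with miR-138 was at 46.96 and 54.2 CPM in serum and 52.4 and 51.6 CPM at 2 days (0.04, adjusted p = 0.671), and Nusap1 rose from 74.3 and 70.5 to 108 and 86.9 CPM (0.43, SE 0.0879, adjusted p = 0.00026). With miR-137, Mad2l1 fell from 115 and 112 CPM to 52.2 and 50.98 CPM (-1.14, SE 0.0743, adjusted p = 8.92e-11). Tested as a difference from pUC19, the response to withdrawal was smaller with miR-138 for 7 genes and larger for 0 (13.3% of all genes were called in this direction and 14.5% in the other, so the share is near the background), led by Pttg1 (0.91, SE 0.109, adjusted p = 4.88e-06) and Ccnb2 (0.59, SE 0.11, adjusted p = 0.000504). With miR-137 it was larger for 20 genes and smaller for 0 (11.4% of all genes were called in this direction and 11.9% in the other), led by Mad2l1 (-0.68, SE 0.104, adjusted p = 9.65e-05) and Aurkb (-0.49, SE 0.0869, adjusted p = 0.000428). Single libraries moved these results. With 1 library left out at a time, the median difference with miR-137 was -0.405 to -0.158 (-0.288 with all), below 0 each time. With miR-138 it was -0.0132 to 0.222 (0.117 with all). The value of -0.0132 came without pUC19 replicate 2 at 2 days, so the direction of the miR-138 result rests on single libraries.

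Genes of the related lists were counted for the mimics in the same way. In serum the miR-138 mimic lowered 29 of 29 DNA replication genes (median -0.801), 31 of 35 further kinetochore and spindle genes, with Kif18b at -1.34 (SE 0.0634), and 15 of 20 genes of cell cycle transcription, with Lin9, a MuvB subunit, at -1.30 (SE 0.0664, adjusted p = 6.58e-12). The miR-137 mimic raised 7 and lowered 2 of the replication genes, a share near the 23.1% of all genes called higher. Among the genes of cell cycle transcription it moved the subunits of NF-Y apart: Nfya rose by 1.24 (SE 0.0525, adjusted p = 6.93e-13) and Nfyc changed by -1.33 (SE 0.135, adjusted p = 1.28e-07). Among the 17 anaphase-promoting complex genes it lowered Anapc13 by the largest amount (-2.03, SE 0.119, adjusted p = 6.64e-11), and the miR-138 mimic lowered 6 and raised 5 of them (median 0.000485), where 27.3% of all genes were lower and 28.7% higher.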

How the data were processed

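Counts per gene were deposited by the authors for each library, made with STAR on mm9 per the submitters' processing notes. No version, annotation or count setting is given in the sources used here. The deposited counts hold an unstranded column and one for each strand. The fourth was used, since the third held 3.18 to 3.81% of assigned reads. Entries that name no gene were left out (unmapped reads 4.53 to 9.67%), and reads mapping to several places are not counted to genes. Of 37310 identifiers 32620 (87.4%) matched a symbol.

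Each experiment was fitted with edgeR 4.0.16 (quasi-likelihood test, TMM scaling, filterByExpr with a minimum count of 10, group means) in R 4.3.3, and p-values were adjusted over all genes by Benjamini-Hochberg at 0.05. WT libraries of the first 2 experiments were fitted jointly for the difference between 1 and 4 days. SE is the log2 fold change over the square root of F. The 46 genes, the lists of related genes and the promoter elements were chosen with earlier results of these data known. Genes given in full are those with the lowest adjusted p in each direction, up to 3 that did not pass, and Mki67, Ccnb1, Cdk1, Plk1, Aurkb, Foxm1 and Bub3, and of each related list up to 3 with the lowest adjusted p. Names of values chosen for their size at either end (Nusap1, Racgap1, Plk4 and Kif14 among them) were picked after the values were seen. Correlations of same-numbered replicates' deviations over all genes were -0.187 to 0.0964, none over 0.1, so they were not paired. No 2 libraries of a group were duplicates (17 pairs, chi-square per degree of freedom 2.17 to 28.4).

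On simulated counts with 2-fold changes, 73.2% of 194 changed genes were recovered in the comparison of WT at 1 day (13351 genes run), 72.5% of 200 at 4 days (13248 genes run), 67.5% of 197 in the difference between these times (13783 genes run) and 88.8% of 197 in that of the miR-138 mimic in serum (12326 genes run). False calls made up 5.96%, 6.45%, 7.64% and 4.37% of the calls, in that order. Alternatives were DESeq2 1.42.0, DESeq2-type size factors, no filter on low counts, a replicate block, unstranded counts and leaving out each library. The 6 small RNA libraries were not used.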

Additional observations from a re-analysis of the deposited data

Results flagged for a closer look

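Differences between groups in the response to serum removal were tested as such, and each is given as measured. With the mimics and pUC19 this response cannot be told apart from time since transfection. The response of DKO cells at 1 day differed from that of WT cells for 34 of the 46 genes (5.36% of all genes were called in this direction). The differences of log2 fold changes were 0.64 for Top2a, 0.74 for Kif4, 0.70 for Ect2 and 0.66 for Bub1b. The change of WT cells at 4 days differed from that at 1 day for 46 genes, across 2 experiments (23.3% of all genes were called in this direction). The differences were -4.31 for Aurka, -4.40 for Cdca8, -4.52 for Cdk1 and -3.80 for Espl1.

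The response with the miR-138 mimic differed from that with pUC19 for 7 genes, by 0.91 for Pttg1, 0.59 for Ccnb2, 0.54 for Mki67 and 0.42 for Fam83d, in a comparison where 13.3% of all genes were called in this direction, near the share of the 46. The response with the miR-137 mimic differed for 20 genes (11.4% of all genes were called in this direction). The differences were -0.68 for Mad2l1, -0.49 for Aurkb, -0.46 for Espl1 and -0.59 for Bub1. The pUC19 libraries at 2 days, which lay apart from each other, enter both mimic responses. The median differences moved when 1 library was left out.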

How the results depend on the processing

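The count of mitosis genes called was 46 at 1 day in WT cells, at 4 days and in the difference between these times under every alternative run. It was 42 to 44 for DKO against WT at 1 day and 44 to 46 for the miR-138 mimic in serum. Leaving out 1 library moved other counts: 13 to 27 for DKO against WT in serum (20 with all), 22 to 41 for the difference of responses between genotype labels (34), 10 to 21 for pUC19 against no transfection named (27), 7 to 21 for miR-137 at 2 days (13), 5 to 18 for the miR-138 response (7) and 6 to 32 for the miR-137 response (20). For miR-137 at 2 days the median turned above 0 without pUC19 replicate 1. Foxm1 in DKO against WT in serum was -0.25 without DKO replicate 1 and 0.19 without replicate 2. The cause of these moves was not tested. The miR-138 response had 12 genes called without a filter on low counts.

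Over all genes no correlation between same-numbered replicates was above 0.1, and with the replicate block the count for the miR-138 response was 12, 46 at 1 and at 4 days in WT cells, and 26 for the miR-137 response. With 2 libraries in most groups, 1 library can decide a count, and at 4 days reads of many of these genes are few.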
